A study of Mus musculus with 155 samples.

Results

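Glucose uptake and its breakdown to lactate in mouse cells were followed here through 10 genes, listed by name as enzymes and the transporter of the pathway: Slc2a1, Hk2, Gpi1, Pfkl, Aldoa, Tpi1, Pgk1, Eno1, Ldha and Pdk1. All 10 were found among the 55471 genes of the count tables, and all 10 were kept by the filter on low counts in every comparison below. The question was whether their mRNA levels differed when embryonic stem cells (ESCs) made a mutated histone H3.3, and how the levels stood once the cells had been differentiated.

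The cells were KH2 mouse ESCs carrying a single extra, doxycycline (Dox)-inducible copy of SNAP-HA-tagged H3.3, either WT, K27M or K27L, on top of their own H3.3 genes. K27M puts methionine in place of the lysine that the PRC2 complex methylates and is known to inhibit PRC2, K27L puts leucine there, and GSK343, a small-molecule PRC2 inhibitor, was given to WT-H3.3 cells as a further arm. ESCs were grown on gelatin with LIF and 2i, and libraries were made from all 4 arms at 4, 8, 24 and 72 h of Dox (1 µM), with 2 replicates each (32 libraries). Retinoic acid (RA, 1 µM)-treated cells of the 3 lines were sequenced 24 and 72 h after Dox, which was added 24 h into a differentiation of 4 days (6 libraries), and ESC-derived oligodendrocyte precursor cells (OPCs) of the WT and K27M lines at the same Dox times (4 libraries). Every library, controls included, came from Dox-treated cells, and each line is a clone, so a difference between lines cannot be told apart from a difference between clones. In RA-treated cells and OPCs, each line and Dox time was a single library. ESC replicates were made weeks apart, and p-values within ESCs measure the spread between these libraries. Within OPCs the p-values measure the spread between 24 and 72 h of Dox in each line. Within RA-treated cells they measure what line and Dox time leave unexplained. The p-values for lines within RA-treated cells or OPCs therefore measure no spread between replicates.

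Glycolysis turns 1 glucose into pyruvate through a chain of cytosolic enzymes and yields ATP without oxygen. Pluripotent cells are known for running this pathway fast, with much of the pyruvate leaving the cell as lactate, and the pathway is commonly toned down as they differentiate. Many of its genes are textbook targets of the hypoxia-inducible factor HIF-1, which binds DNA at sites with the core letters ACGTG.

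Because several members moved together, their promoters (RefSeq, build GRCm38.p6, 250 bases before to 50 after each annotated start) were searched for ACGTG on either strand. It was held by 5 of the 10 members, Slc2a1, Hk2, Aldoa, Pgk1 and Ldha, in 6 of the 16 annotated promoters of the set, against 6447 of 32851 promoters of all genes (19.6%). The 6 include overlapping promoters of Aldoa that share the same match. The background counts promoters, and the share of all genes with a match in any promoter was not computed. Of 20 promoters of the 15 matched genes in a list of HIF targets outside glycolysis, 14 held ACGTG. Stretches of 30 bases around 1 match per gene, and around both forward matches of Ldha, are printed 5′ to 3′ on the strand of the gene with the match in capitals; CACGT is the same motif read on the opposite strand, and the letters CACGTG hold it on both.
Slc2a1, chr4:119108697-119108726, plus strand: gtcccgccccggACGTGctccccaggcccc
Hk2, chr6:82774663-82774692, minus strand: agccacggaacaCACGTcccaactctggcg
Aldoa, chr7:126799363-126799392, minus strand: tgtggctcgagtCACGTcctagcggggcgg
Pgk1, chrX:106186938-106186967, plus strand: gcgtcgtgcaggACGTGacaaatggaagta
Ldha, first match, chr7:46845648-46845677, plus strand: gtgtcgcagcacACGTGgagccactcttgc
Ldha, second match, chr7:46845745-46845774, plus strand: ggcccagcctacACGTGggttcccgcacgt
The matches lay 36 bases before the start in Slc2a1, 150 before it in Pgk1, and 144 and 47 before it in Ldha. Both Ldha matches sit inside CACGTG, which 7.15% of all promoters hold. A match is a description of these letters and not a measured binding site. The promoters of Gpi1, Pfkl, Tpi1, Eno1 and Pdk1 held no match in this window.

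Library totals ranged from 1247934 to 21161392 counts in 31 of the 32 ESC libraries, from 2239137 to 22269533 in RA-treated cells and from 7499258 to 12387113 in OPCs. The second K27L replicate at 72 h held only 68378 counts and stood low for most members, so K27L values are also given without it. Levels are given as CPM, the counts of a gene relative to a library total scaled by its TMM factor. A gene passed when the quasi-likelihood test of edgeR, with Benjamini-Hochberg adjustment over every gene tested, gave an adjusted p under 0.05. ESC marker genes summed to between 4510 and 7242 CPM in the other 31 ESC libraries, and to 2931 CPM in the shallow library. In the RA-treated cells, labelled as neural progenitors, neural progenitor markers summed to between 104 and 462 CPM and extraembryonic endoderm markers to between 402 and 1637 CPM; in OPCs neural progenitor markers summed to between 3290 and 4839 CPM. In such bulk libraries, fewer cells that express a gene and less RNA of it per cell cannot be told apart.

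Per kilobase of transcript, the 10 genes fell into clear tiers in the 31 deeper ESC libraries. Ldha, which turns pyruvate into lactate, stood at 872 ± 178 CPM per kb (SD, n = 31) and Aldoa, which splits the 6-carbon sugar, at 862 ± 150; this pair differed by less than its spread. Eno1 (334 ± 81.7), Tpi1 (323 ± 66.8) and Gpi1 (271 ± 54.4) formed the next tier, in which each neighbour differed from the next by less than their SDs. Pgk1 followed at 139 ± 35.9 and Slc2a1 at 92.5 ± 19.2. Hk2 (69.4 ± 17.5) and Pfkl (60.4 ± 13.5), the committing kinases of the upper pathway, did not differ beyond their spread, and Pdk1 was lowest at 25 ± 5.61. A 3′ and a whole-transcript kit were both used and which library had which is not given in the sources used here, so the division by length does not hold equally for all libraries.

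Slc2a1 encodes GLUT1, the main basal glucose transporter, and lies on chr4:118781316-118809935 (mm9 coordinates, as for all members). Its level ran from 153 to 298 CPM, with a median of 214, in the 8 WT-H3.3 ESC libraries, and from 198 to 379 CPM, with a median of 277, in the 8 H3.3K27M libraries. Hk2, on chr6:82675019-82724448, encodes the hexokinase that traps glucose inside the cell; it ranged from 239 to 501 CPM (median 355) in WT-H3.3 and from 308 to 570 CPM (median 400) in H3.3K27M cells. For both genes the ranges of the lines overlapped, while the medians were higher in H3.3K27M cells.

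In the upper pathway the same picture was seen in all 4 genes. Gpi1, on chr7:34987141-35015308, which interconverts glucose and fructose phosphates, ran from 392 to 629 CPM (median 481) in WT-H3.3 and from 490 to 889 CPM (median 611) in H3.3K27M cells. Pfkl, on chr10:77449692-77472828, a subunit of the rate-setting phosphofructokinase, ran from 134 to 262 CPM (median 194) in WT-H3.3 and from 209 to 384 CPM (median 254) in H3.3K27M cells. The lowest K27M libraries of these genes stood above the WT medians. Aldoa, on chr7:133938748-133944265, ran from 1009 to 1425 CPM (median 1209) and from 1340 to 1842 CPM (median 1484), so that only its highest WT libraries reached into the K27M range. Tpi1, on chr6:124760604-124764314, which evens out the 3-carbon sugars, ran from 356 to 576 CPM (median 507) and from 531 to 765 CPM (median 610).

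Among the lower steps, Pgk1 on chrX:103382439-103399038, whose enzyme makes the first ATP of the pathway, ran from 151 to 307 CPM (median 238) in WT-H3.3 and from 208 to 416 CPM (median 302) in H3.3K27M cells. Eno1, on chr4:149610830-149622988, the enolase of most growing cells, ran from 412 to 805 CPM (median 601) and from 397 to 955 CPM (median 794). Its lowest K27M library, the second replicate at 72 h, was below every WT library. For the fate of pyruvate, Ldha on chr7:54096845-54110997 ran from 1036 to 1934 CPM (median 1573) and from 1387 to 2057 CPM (median 1801). Pdk1, on chr2:71711281-71741915, encodes a kinase that holds pyruvate back from the mitochondrial pyruvate dehydrogenase; it ran from 93.5 to 172 CPM (median 123) and from 76.6 to 191 CPM (median 128), with no shift between the lines. No member had K27M and WT ranges that did not overlap; 0.0142% of all genes were without overlap and higher in K27M.

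**Figure D1:**
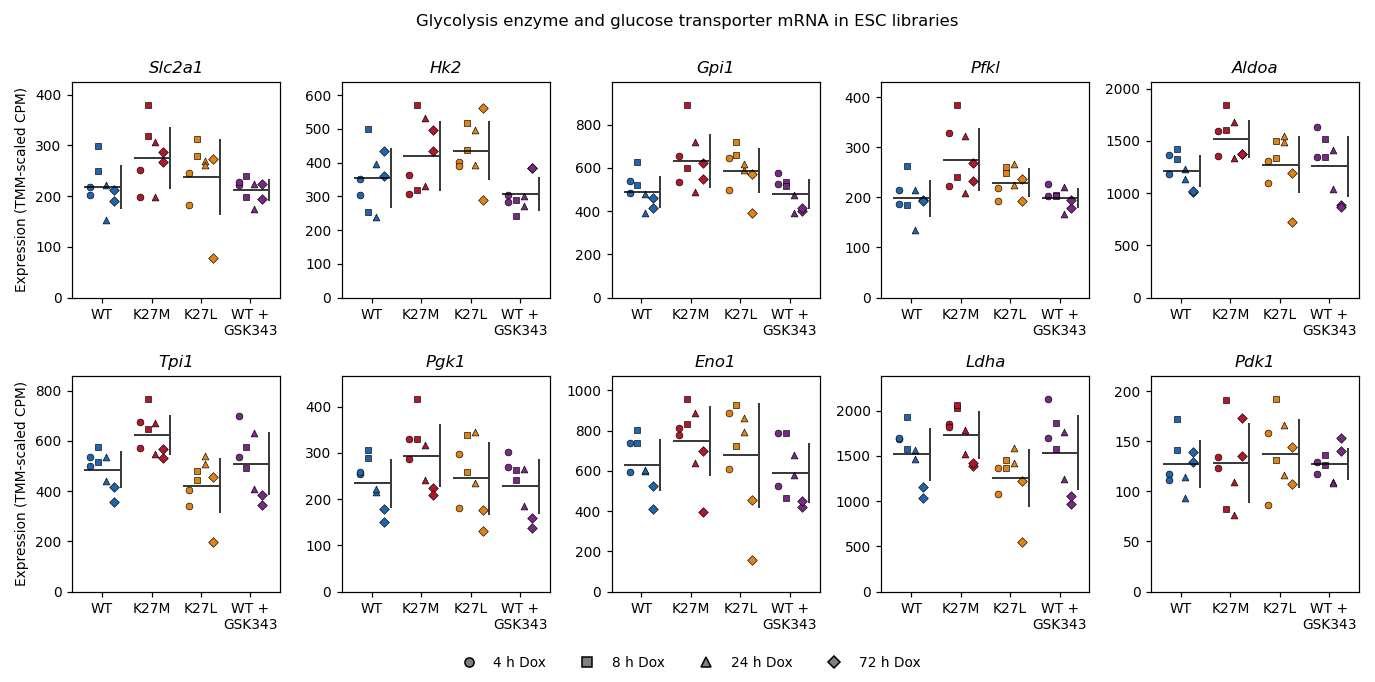
Level of each of the 10 genes (TMM-scaled CPM, y axis from 0) in the 32 ESC libraries, by line or treatment; marker shapes give the hours after Dox, horizontal bars the mean and vertical bars 1 SD of 8 libraries. The K27M means lie above the WT means for 9 genes (for Pfkl 276 against 198 CPM) and at the same level for Pdk1 (128 against 127 CPM), and the lowest K27L point in Slc2a1 (78.5 CPM) is the shallow library.

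Set against WT-H3.3 cells over all Dox times (8 against 8 libraries), the 10 genes were between 0.01 and 0.47 higher on the log2 scale in H3.3K27M cells, with a median of 0.33 against -0.01 for all genes tested. Pfkl had the largest difference, 0.47 (SE 0.12), followed by Gpi1 and Tpi1 at 0.37. None of the 10 passed edgeR's test when replicate numbers were ignored, in a comparison in which 2 of 14076 genes passed (0.0142%). The adjusted p was 0.15 for Pfkl, 0.17 for Gpi1, 0.18 for Aldoa and 0.21 for Tpi1. At an unadjusted p under 0.05 there were 6 members, Slc2a1, Gpi1, Pfkl, Aldoa, Tpi1 and Pgk1, against 5.76% of all genes in the higher direction, and DESeq2 passed 0 members. A replicate term shared by all Dox times also passed 0. Leaving out the first K27M replicate at 8 h gave 2 members (Gpi1 and Pfkl), and leaving out that at 4 h gave 1 (Pfkl).

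Libraries of the same Dox time and replicate number deviated together in these lines, with correlations of the deviations of 0.58, 0.69, 0.58 and 0.67 at the 4 times, so each K27M library was also compared with the WT library of its own time and number. The numbers do not mark rounds shared by every arm: the correlations with WT at the same times were -0.53, -0.67, -0.61 and 0.25 for K27L and 0.04, -0.26, -0.41 and 0.59 for GSK343. Hk2, Gpi1, Pfkl, Aldoa, Tpi1 and Pgk1 were higher in H3.3K27M cells in 8 of 8 such pairs, as were 3.79% of all genes. Slc2a1, Eno1 and Ldha were higher in 7 of 8 pairs, and Pdk1 in 5 of 8; 13.2% of all genes were higher in at least 7. The difference of Pfkl within pairs ran from 0.25 to 0.64 on the log2 scale and that of Aldoa from 0.17 to 0.48. Pdk1 spread most, from -0.76 to 0.42.

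**Figure D2:**
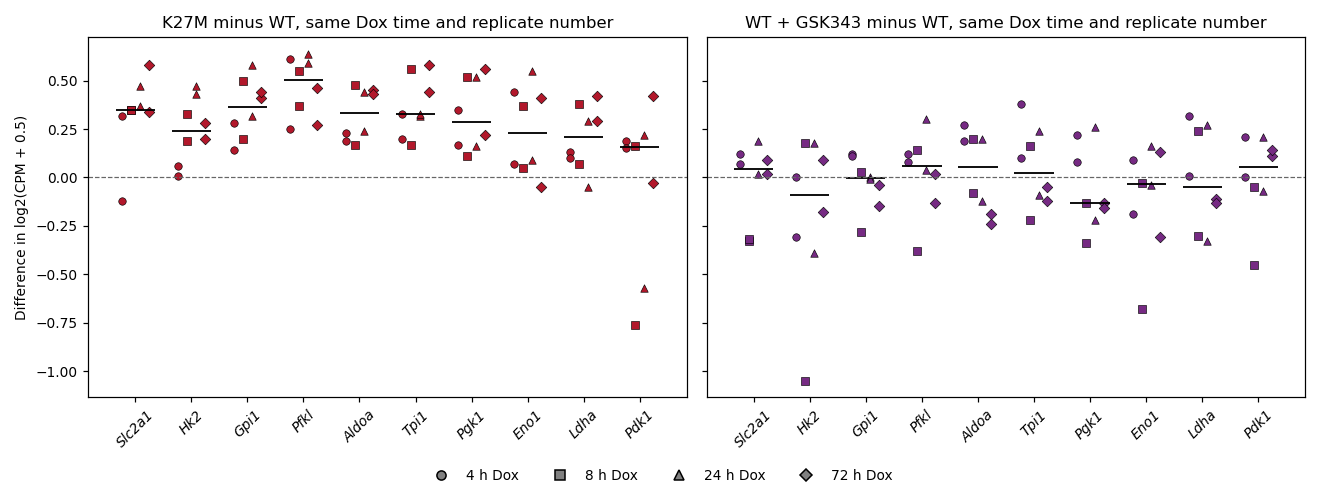
Difference in log2(CPM + 0.5) between libraries of the same Dox time and replicate number, for H3.3K27M minus WT (left) and WT with GSK343 minus WT (right); shapes give the Dox time and bars the median of 8 pairs. For K27M nearly all points of the first 9 genes lie above 0 (medians from 0.21 for Ldha to 0.50 for Pfkl), whereas the GSK343 medians lie between -0.13 and 0.06.

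With a term for each such pair, an alternative added after the data were seen, 9 of the 10 genes rose in H3.3K27M cells and Pdk1 did not pass, in a fit in which 710 of 13713 genes rose (5.18%). Pfkl rose by 0.47 (SE 0.06, adjusted p = 0.00096, edgeR), Tpi1 by 0.37 (SE 0.06, adjusted p = 0.0038) and Gpi1 by 0.36 (SE 0.06, adjusted p = 0.0044). Aldoa, Pgk1 and Slc2a1 each rose by 0.33, with adjusted p from edgeR of 0.0061, 0.009 and 0.0099. The rises of Hk2 (0.24, adjusted p = 0.021), Eno1 (0.24, adjusted p = 0.038) and Ldha (0.20, adjusted p = 0.044) were nearer the threshold. Pdk1 was at -0.02 (SE 0.11, adjusted p = 0.91). As folds these were small, between 1.15 (Ldha) and 1.38 (Pfkl).

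DESeq2 with the same pairs also passed 9 members (5.84% of genes higher). Leaving out 1 pair at a time left 6 to 8 members, and the fewest, 6, came without the second pair at 24 h or the first at 72 h. Slc2a1, Gpi1, Pfkl, Aldoa, Tpi1 and Pgk1 passed in all 8 of these fits, Hk2 in 5, Eno1 in 3 and Ldha in 1. Libraries also differed in how their levels related to transcript length, with a correlation between -0.672 and 0.52 in ESCs; with that measure added to the pairs, 9 members still passed (4.99% of genes higher).

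At 24 and 72 h alone, Slc2a1, Gpi1, Pfkl and Tpi1 rose with the pairs in the model, by 0.44, 0.43, 0.49 and 0.41 (adjusted p from edgeR of 0.026, 0.036, 0.019 and 0.042; 0.465% of genes higher). Without the pairs 0 members passed edgeR or DESeq2 at these times, as did 0% of genes in edgeR, and 6 had an unadjusted p under 0.05 (4.19% of genes). The K27M difference at 24 and 72 h minus that at 4 and 8 h was between 0.02 and 0.21, with 0 members passing in edgeR or DESeq2 (0% of genes in edgeR) and 0 at an unadjusted p under 0.05.

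Other genes of the pathway were less uniform. Of 54 listed, 42 were tested. Without the pairs 0 passed, where 0.0142% of all genes did, and with them 7 rose, where 5.18% of all genes did. Among these were isoform partners of the members: Slc2a3, the high-affinity transporter GLUT3, at 0.39 (adjusted p = 0.0032, edgeR), Hk1 at 0.62 (0.0037), Pfkp at 0.53 (0.0011) and Aldoc at 0.51 (0.012). Pkm, the last ATP-making step, rose by 0.17 (0.038), the lactate exporter gene Slc16a3 by 0.45 (0.0085) and Pdk4 by 0.61 (0.04). Gapdh, at 0.17 (adjusted p = 0.063), Pgam1, at 0.09, and Slc16a1, at 0.14 (adjusted p = 0.079), did not pass. Of 17 tested HIF targets outside glycolysis, 1 rose without the pairs (Ndufa4l2, 1.16, adjusted p = 0.033, edgeR). With the pairs 11 rose, among them P4ha1 at 0.54 and Vegfa at 1.04, where 5.18% of all genes rose. That list was chosen with earlier results of these data known. It holds Vegfa, Ddit4 and Bhlhe40, which the paper names as raised in these H3.3K27M cells, so its count is no independent result.

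In H3.3K27L cells no member passed against WT-H3.3, and the differences went both ways. They lay between -0.27 (Ldha) and 0.32 (Hk2) on the log2 scale, with a median of 0.07. None of the 10 passed edgeR or DESeq2, although 8.11% of all genes passed edgeR, and 3 had an unadjusted p under 0.05 (Hk2, Gpi1 and Ldha; 23.1% of genes). A fit with a term for each pair was not run for K27L. Without the pairs, 0 members passed edgeR or DESeq2 for K27M against WT too. Ldha ran from 1081 to 1583 CPM in the 7 deeper K27L libraries (median 1369), below the WT median of 1573. Ldha fell by 0.47 (adjusted p = 0.014, edgeR) when the first K27L replicate at 72 h was left out. K27L at 72 h then rested on the shallow library alone, where Ldha stood at 550 CPM. Hk2 ran from 389 to 562 CPM (median 438) in those 7 libraries, and rose by 0.46 (adjusted p = 0.044) without the second WT replicate at 8 h. Of 42 tested pathway genes 1 rose and 5 fell. Gapdh, 1 step below Tpi1, was at -0.58 (adjusted p = 0.0074, edgeR), Eno3 at -1.04 (adjusted p = 0.0042) and Tigar, which lowers the flow through glycolysis, at -0.71 (adjusted p = 0.00067), while Pfkm rose by 0.49 (adjusted p = 0.013). None of 17 tested HIF targets passed, and the count of members was also 0 without the shallow library.

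The mutants were also compared directly. Tpi1 was higher in H3.3K27M than in H3.3K27L cells by 0.55 (SE 0.12, adjusted p = 0.0034) and Ldha by 0.47 (SE 0.12, adjusted p = 0.01) in edgeR's test, where 6.33% of genes were higher. The Tpi1 ranges were 531 to 765 CPM in K27M and 339 to 541 CPM in the 7 deeper K27L libraries, and the Ldha ranges 1387 to 2057 CPM and 1081 to 1583 CPM, both with overlap. Ldha did not pass when only the libraries compared were in the model (adjusted p = 0.069). Aldoa, at 0.27, passed with DESeq2 (adjusted p = 0.042) and not with edgeR (adjusted p = 0.076). It passed edgeR without the first K27L replicate at 72 h (0.40, adjusted p = 0.019). K27L at 72 h then rested on the shallow library alone, where Aldoa stood at 720 CPM. Pgk1, at 0.27, passed without the second K27L replicate at 4 h (0.37, adjusted p = 0.045). With the length term Pfkl (0.34, adjusted p = 0.0073) and Aldoa (0.26, adjusted p = 0.035) passed as well. Slc2a1, Hk2, Gpi1, Eno1 and Pdk1 lay between -0.08 and 0.19 and did not pass. Of the other pathway genes 9 of 42 were higher in K27M cells and 0 lower, led by Gapdh (0.75, adjusted p = 0.00075), with Slc16a1 (0.45), Slc16a3 (0.66), Pfkp (0.52) and Pdk3 (0.43) among them. Of 17 HIF targets, 7 were higher, the lowest adjusted p being those of Ndufa4l2 (1.33), Ddit4 (1.42), P4ha1 (0.65) and Vegfa (0.96).

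With the PRC2 inhibitor, no member was distinguishable from untreated WT-H3.3 cells. Slc2a1 ran from 174 to 239 CPM (median 222) with GSK343 against the WT median of 214, Pfkl from 166 to 227 CPM (median 202) against 194, and Ldha from 962 to 2124 CPM (median 1635) against 1573. The treated range of Slc2a1 and of Pfkl lay inside the untreated one. The differences on the log2 scale ran from -0.20 for Hk2 (95% interval -0.50 to 0.09) to 0.07 for Tpi1 (-0.16 to 0.29), and the highest upper bound was 0.32, for Pdk1. No member passed edgeR or DESeq2, none had an unadjusted p under 0.05, and 0 of 14076 genes passed (0%, with 621 at an unadjusted p under 0.05). Pairing the libraries by Dox time and number also passed 0 members, but here the numbers did not pair the libraries, so that the GSK343 pairs are not equivalent to the K27M pairs.

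H3.3K27M cells were then set against the GSK343-treated cells, both of which had the same WT-H3.3 libraries as their controls above. The members lay between -0.01 (Pdk1) and 0.45 (Pfkl) on the log2 scale, with a median of 0.34. None passed edgeR (0.256% of genes did), 8 had an unadjusted p under 0.05 (20.9% of genes), and DESeq2 passed 1, Gpi1. With a replicate block common to all times Gpi1 (adjusted p = 0.044) and Pfkl (adjusted p = 0.049) passed. With a term for each pair of the same Dox time and number none passed, the lowest adjusted p from edgeR being 0.057 (Pfkl). Here too the numbers did not pair the libraries, the correlations of the deviations being -0.31, -0.20, -0.23 and 0.14. Without any block Gpi1 and Pfkl, at 0.39 and 0.45, came nearest, both with an adjusted p of 0.09. The count depended on single libraries, being 5 without the first K27M replicate at 24 h, 4 without that at 8 h and 2 without that at 4 h. Among the isoform partners Hk1 (0.79, adjusted p = 0.048, edgeR) and, at the threshold, Pfkp (0.71, adjusted p = 0.05) were higher in K27M cells, as was the HIF target Vegfa (1.27, adjusted p = 0.034). With a term for each pair Pfkp passed (adjusted p = 0.03, edgeR), and Hk1 (0.051) and Vegfa (0.059) did not.

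Time after Dox was followed in the WT-H3.3 line, where no member passed between 24 and 72 h and 4 and 8 h. Pgk1 stood at 255 and 259 CPM at 4 h and at 307 and 289 CPM at 8 h, and then at 216 and 221 CPM at 24 h and 151 and 178 CPM at 72 h. Every late library of Pgk1 was thus below every early one, which held for 3 members (Gpi1, Pgk1 and Ldha) and 2.86% of all genes. The difference of Pgk1 was -0.54 on the log2 scale (SE 0.16, adjusted p = 0.24), that of Eno1 -0.43 (adjusted p = 0.63) and that of Ldha -0.41 (adjusted p = 0.46). Gpi1 (-0.31), Slc2a1 (-0.30), Tpi1 (-0.29), Aldoa (-0.26), Pfkl (-0.20) and Pdk1 (-0.17) had smaller differences, and Hk2 was at 0.02. No member passed edgeR or DESeq2, where 0.121% of all genes passed edgeR, and 3 had an unadjusted p under 0.05 (8.38% of genes).

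Most of the 10 genes went up and down together from library to library. Over the 31 deeper ESC libraries, the correlation of their log2 levels within the 45 pairs of members had a median of 0.57 and ran from -0.29 to 0.90, with 27 pairs above 0.5. Pgk1 followed the others most (median r 0.76), then Aldoa (0.70), Pfkl (0.62) and Gpi1 (0.60). Hk2, with a median of 0.06, followed Slc2a1 (0.61), Pfkl (0.61) and Gpi1 (0.57), and its r with the other members lay between -0.29 and 0.11. Pdk1 (median -0.02) had no r above 0.24. These 2 genes have the longest transcripts of the set. The level of Hk2 went with the length relation of the library (r = 0.80), and that of Ldha against it (r = -0.63). For Pdk1 the r with the length relation was only -0.15. These correlations are descriptions, since libraries share lines, Dox times and replicate rounds.

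RA-treated cells of the H3.3K27L line, and not of the K27M line, had higher levels of several glycolytic genes. In each case the pair of values below are for 24 h and 72 h after Dox, each a single library. Pfkl stood at 163 and 50 CPM in WT-H3.3, at 98.4 and 48.4 CPM in H3.3K27M and at 306 and 108 CPM in H3.3K27L cells. Tpi1 stood at 336 and 182 CPM in WT-H3.3, 253 and 188 CPM in K27M and 536 and 390 CPM in K27L cells. For both genes K27L was the highest line at each time. Ldha stood at 420 and 332 CPM in WT-H3.3, 358 and 358 CPM in K27M and 722 and 646 CPM in K27L cells, so both K27L libraries were above all others. Aldoa stood at 396 and 238 CPM, 407 and 194 CPM, and 674 and 341 CPM in the same order.

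**Figure D3:**
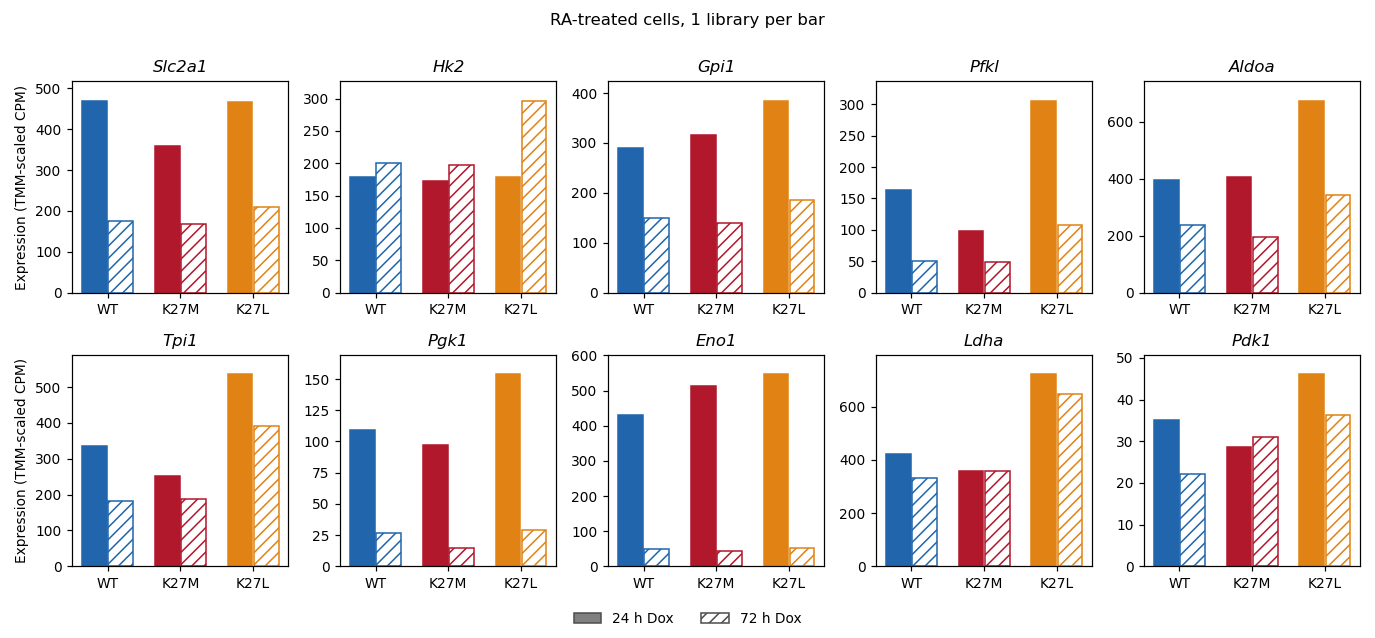
Level of each of the 10 genes (TMM-scaled CPM, y axis from 0) in the 6 RA-treated libraries; each bar is 1 library, solid at 24 h and hatched at 72 h after Dox, with no error bar since each line and time was sequenced once. K27L bars are highest at both times for Pfkl, Aldoa, Tpi1 and Ldha, and Eno1 drops in all 3 lines, from between 431 and 547 CPM to between 43.5 and 51.9 CPM.

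With Dox time in the model, 4 of the 10 genes were higher in K27L than in WT-H3.3 RA-treated cells, where 3.51% of all genes were higher. Pfkl was higher by 0.98 (SE 0.19, adjusted p = 0.011), Tpi1 by 0.87 (SE 0.17, adjusted p = 0.013), Ldha by 0.86 (SE 0.17, adjusted p = 0.013) and Aldoa by 0.64 (SE 0.17, adjusted p = 0.041), all by edgeR. Pdk1 (0.51, adjusted p = 0.2), Gpi1 (0.36, adjusted p = 0.21) and Pgk1 (0.36, adjusted p = 0.32) did not pass, nor did Hk2, Eno1 and Slc2a1, at 0.27, 0.23 and 0.11. Between the K27M and WT lines no member passed. The differences ran from -0.50 (Pfkl, adjusted p = 0.73) to 0.02 (Eno1), 0 members passed edgeR or DESeq2, 2 had an unadjusted p under 0.05 (6.16% of genes), and 0.0163% of genes passed edgeR. Without the WT library at 72 h, Pfkl alone was lower in K27M, at -0.72 (adjusted p = 0.0054).

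Between the mutants, 5 genes were lower in K27M than in K27L RA-treated cells, where 6.86% of genes were lower. Pfkl differed most, at -1.47 (SE 0.19, adjusted p = 0.00047, edgeR), which is 0.36 times the K27L level. Tpi1 followed at -1.12 (SE 0.17, adjusted p = 0.0016), Ldha at -0.98 (0.0033), Pgk1 at -0.84 (0.013) and Aldoa at -0.82 (0.0073). All 10 genes were lower in K27M than in K27L at both Dox times, as were 27.6% of all genes. Without the K27M library at 24 h, which leaves that line 1 library assumed to vary like the others, 0 members passed, with differences of -1.11 for Pfkl, -0.96 for Tpi1, -0.81 for Ldha, -1.14 for Pgk1 and -0.88 for Aldoa. For K27L against WT, leaving out 1 library left 3 to 5 members. Aldoa did not pass without the K27L library at 72 h (0.72, adjusted p = 0.071) or 24 h (0.56, adjusted p = 0.18) or the WT library at 24 h (0.49, adjusted p = 0.064), Pgk1 passed without the WT library at 72 h (0.53, adjusted p = 0.042) and Pdk1 without that at 24 h (0.84, adjusted p = 0.023). With the Dox times pooled in place of being modelled, 0 members passed in either comparison.

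The same line stood apart in related genes and in cell type markers, where 3.51% of all genes were higher in K27L than in WT. Of 36 tested pathway genes, 5 were higher in K27L than in WT RA-treated cells, among them Slc2a3 (0.97, adjusted p = 0.037) and both lactate carrier genes, Slc16a1 (0.79, adjusted p = 0.034) and Slc16a3 (0.97, adjusted p = 0.0062), with Hkdc1 (1.29) and Pdhb (1.16), while Pdk3 (-0.89) and Tigar (-0.95) were lower. Slc2a3 stood at 2311 and 467 CPM in WT-H3.3, 1186 and 519 CPM in K27M and 3596 and 1219 CPM in K27L cells. Of 15 tested HIF targets, 6 were higher in K27L cells, including P4ha1 (1.22) and Plod2 (1.23). Lower in K27M than in K27L cells were 9 of the 15, where 6.86% of all genes were lower. Extraembryonic endoderm markers summed to 1634 and 1637 CPM in the K27L libraries, against 594 to 831 CPM in WT and 402 to 558 CPM in K27M, and 6 of the 7 tested were higher in K27L than in WT. ESC markers summed to between 305 and 459 CPM in K27L, 171 and 260 CPM in WT and 168 and 221 CPM in K27M cells. Whether the marker differences and the glycolytic difference are related was not tested.

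In OPCs, 8 of the 10 members did not pass between the lines, and Hk2 and Eno1 did. Each of these is 1 of several isoforms of its step, as are Slc2a1, Pfkl, Aldoa, Ldha and Pdk1 among those that did not pass. Hk2 stood at 26.3 and 37 CPM at 24 and 72 h in WT-H3.3 and at 46.7 and 56.1 CPM in H3.3K27M OPCs. Eno1 stood at 15.6 and 16.5 CPM in WT-H3.3 and at 38.9 and 35.7 CPM in K27M OPCs. For both, the K27M libraries were above both WT libraries, as for 37.6% of all genes. Ldha, by contrast, stood at 375 and 340 CPM and at 367 and 344 CPM, and Slc2a1 at 14.2 and 22.5 CPM and at 14.5 and 23.1 CPM, with overlap in both.

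Eno1 was 2.34-fold higher in K27M OPCs (log2 difference 1.22, SE 0.17, adjusted p = 0.00016, edgeR), and Hk2 was 1.63-fold higher (log2 difference 0.71, SE 0.19, adjusted p = 0.0097). These are 2 of 10 members in a comparison where 25.0% of all genes were higher and 51.5% passed in either direction. Hk2 did not pass without the WT library at 24 h (0.46, adjusted p = 0.096). The other 8 members lay between -0.31 (Pdk1) and 0.20 (Gpi1), and the interval of Ldha was -0.25 to 0.25. Aldoa, Tpi1 and Pdk1 had both K27M libraries below both WT libraries without passing, and 38.8% of all genes were without overlap in that direction.

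Counts of Eno1 are uncertain in OPCs. The genome holds 6 near copies of its transcript, covering at least 50% of it at 90% identity or more (highest 99.6%). Those that are genes in the tables took between 23.876 and 53.59% of the summed counts of Eno1 and its copies in OPCs and 4.925 to 20% in ESCs. In RA-treated cells they took 17.838 to 23.418% at 72 h of Dox and 7.544 to 8.363% at 24 h. Near copies by the same limits were also found for Pgk1 (2, highest identity 99.7%), Gpi1 (1), Ldha (7) and Aldoa (5). In any library their share of the counts was at most 0.09% for Pgk1, 0.818% for Ldha, 1.786% for Aldoa and 3.226% for Gpi1. Reads that match a gene and its copy equally may be counted at neither. A small share therefore does not show that no reads of these genes were lost, which was not tested. Tpi1 has 2 near copies, neither a gene in the tables, so their share has no value. For Slc2a1, Hk2, Pfkl and Pdk1 none was found.

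Several isoform partners stood at very different levels in the OPC lines. Pfkp stood at 75.9 and 56.1 CPM in WT-H3.3 and at 4.31 and 3.43 CPM in K27M OPCs (-4.08 on the log2 scale). Slc2a3 stood at 90.3 and 77 CPM against 14.6 and 14.8 CPM, Eno2, the neuronal enolase, at 24 and 19.9 CPM against 1.25 and 2.37 CPM, and Hk1 at 188 and 182 CPM against 79.6 and 105 CPM. The K27M libraries of all 4 genes were below the WT libraries. In the other direction, Ldhb, whose subunit favours the use of lactate, stood at 98.8 and 102 CPM in WT-H3.3 and at 165 and 170 CPM in K27M OPCs, and Aldoc, the brain aldolase, at 296 and 325 CPM against 410 and 551 CPM. Of the 35 tested pathway genes 14 passed, in a comparison in which 51.5% of all genes did. Slc2a3 (-2.50), Hk1 (adjusted p = 0.00021) and Eno2 (-3.57) fell with Pfkp, and Aldoc (0.63, adjusted p = 0.0051), Ldhb (0.75, adjusted p = 0.00054) and Pfkm (0.44, adjusted p = 0.043) rose.

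**Figure D4:**
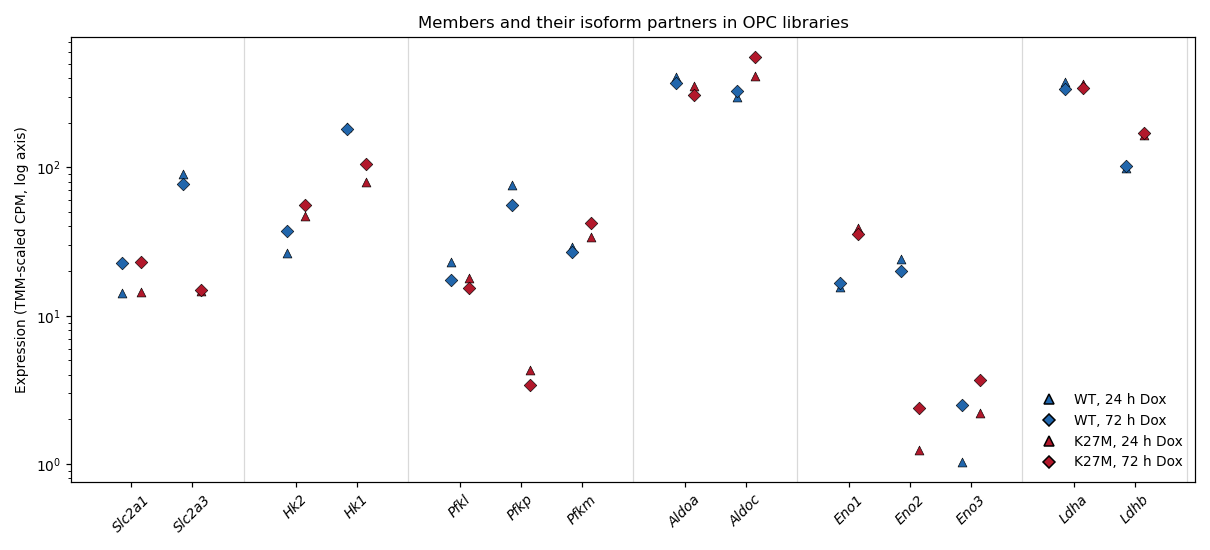
Level (TMM-scaled CPM, log axis) of the members beside the other isoforms of the same step in the 4 OPC libraries, by line and Dox time, 1 point per library. In K27M OPCs Hk2 and Eno1 lie above WT while Hk1, Eno2, Slc2a3 and Pfkp lie below it, Pfkp at 4.31 and 3.43 CPM against 75.9 and 56.1 CPM, and Ldhb and Aldoc lie above.

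Cell type markers also differed between the OPC lines. Oligodendrocyte lineage markers summed to between 513 and 543 CPM in WT-H3.3 and 1690 and 1910 CPM in K27M OPCs, neuron markers to between 792 and 794 CPM and 1818 and 2045 CPM, and fibroblast markers to between 588 and 641 CPM and 46.5 and 51.3 CPM. Their part in the differences of Hk2, Eno1 and the partner isoforms was not tested. Of 15 tested HIF targets 2 rose and 7 fell in K27M OPCs, where 51.5% of all genes passed in either direction. Among those that fell were P4ha2 (-4.81), Egln3 (-2.57) and Adm (-2.26).

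Between stages, all 10 genes were lower in OPCs than in ESCs. In RA-treated cells 9 were lower than in ESCs at 72 h of Dox and 6 at 24 h, when Slc2a1 was higher. In the 12 ESC libraries of the 3 lines at 24 and 72 h Slc2a1 stood at 226 ± 65.1 CPM (SD), in the 3 RA-treated libraries at 24 h at 432 ± 63 CPM, in the 3 at 72 h at 185 ± 21.8 CPM and in the 4 OPC libraries at 18.5 ± 4.9 CPM. Its 3 RA libraries at 24 h, at 470, 360 and 467 CPM, were above all 12 ESC libraries, the highest of which stood at 307 CPM. Hk2 went from 414 ± 99.1 CPM to 177 ± 3.67, 232 ± 56 and 41.5 ± 12.8 CPM in the same order. It was below all ESC libraries already in RA-treated cells at 24 h of Dox, as were Gpi1, Aldoa and Pdk1. Such a lack of overlap at 24 h was seen in 1 member upward, where 22.5% of all genes had it, and in 4 downward (11.9%). The 12 ESC libraries, and so their means and SDs, include the shallow K27L library. Its Ldha level of 550 CPM was the only one in ESCs below the highest RA library at 24 h (722 CPM). Pgk1 and Eno1, of the lower pathway, showed the deepest loss between the Dox times of RA-treated cells. Eno1 went from 585 ± 212 CPM in ESCs to 497 ± 59.4, 48.1 ± 4.25 and 26.7 ± 12.4 CPM, and Pgk1 from 220 ± 62.1 to 120 ± 30.2, 23.5 ± 8.05 and 8.72 ± 2.14 CPM. Ldha was lower in RA-treated cells at 24 h of Dox and did not pass between their Dox times. It stood at 1342 ± 321 CPM in ESCs and at 500 ± 195, 445 ± 174 and 356 ± 16.9 CPM thereafter. Gpi1 kept the largest share of its ESC level in OPCs, at 250 ± 29.6 against 524 ± 103 CPM.

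**Figure D5:**
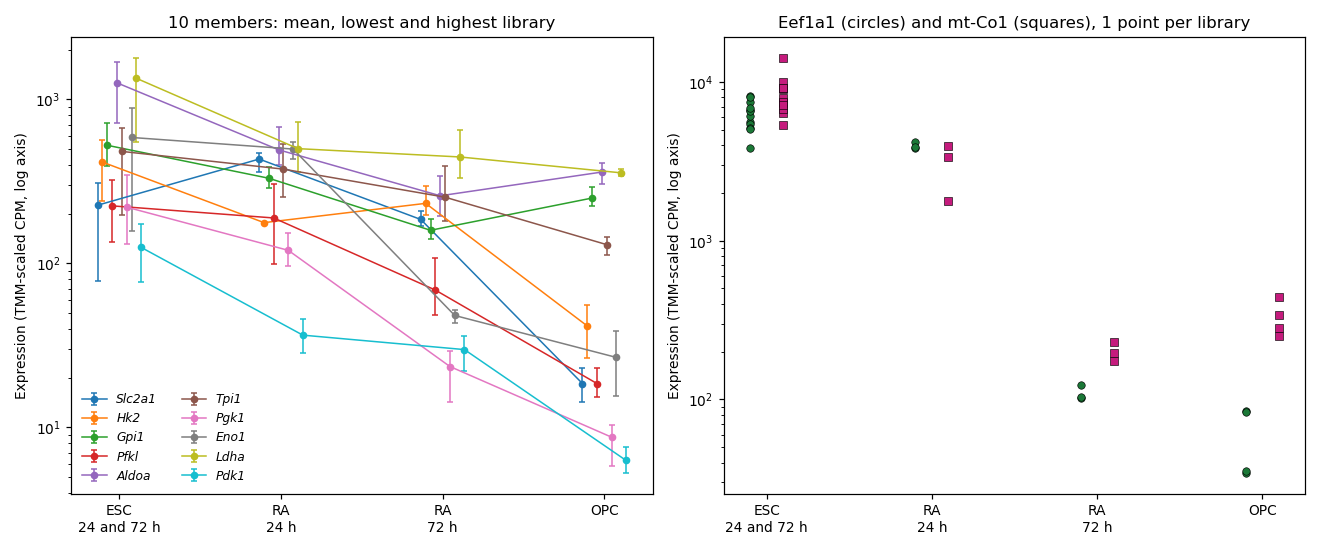
Left, mean level of each of the 10 genes (TMM-scaled CPM, log axis) in ESCs at 24 and 72 h after Dox (12 libraries), RA-treated cells at 24 h and at 72 h (3 each) and OPCs (4), with bars from the lowest to the highest library; right, Eef1a1 (circles) and mt-Co1 (squares) in each library on the same kind of axis. Slc2a1 is highest in RA-treated cells at 24 h (432 CPM), and the other 9 genes are highest in ESCs. In RA-treated cells Eef1a1 drops from between 3831 and 4199 CPM at 24 h of Dox to between 102 and 123 CPM at 72 h.

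In a model of condition and line, 7 of the 10 genes passed between RA-treated cells at 24 h and ESCs. Slc2a1 rose by 0.92 (SE 0.20, adjusted p = 3e-04, edgeR) where 32.4% of all genes rose, and 6 genes fell where 30.8% fell. These were Pdk1 (-1.77), Ldha (-1.44), Aldoa (-1.37), Hk2 (-1.21), Pgk1 (-0.91) and Gpi1 (-0.66). Pfkl, Tpi1 and Eno1, at -0.30, -0.39 and -0.25, did not pass. In RA-treated cells at 72 h of Dox 9 genes stood lower than in ESCs, where 39.7% of genes did. They ran from Eno1 (-3.58) and Pgk1 (-3.24) to Tpi1 (-0.96) and Hk2 (-0.82), and Slc2a1, at -0.30, did not pass. The lower level of Hk2 passed with TMM scaling and not with the RLE scaling (-0.43, adjusted p = 0.051). From 24 to 72 h of Dox in RA-treated cells 6 genes passed, all lower, where 51.7% of genes passed in either direction: Slc2a1 (-1.22), Gpi1 (-1.03), Pfkl (-1.44), Aldoa (-0.91), Pgk1 (-2.34) and Eno1 (-3.34). Tpi1 also passed without the K27L library at 72 h (adjusted p = 0.02) or the K27M library at 24 h (-0.83, adjusted p = 0.033). Hk2, at 0.39, did not pass there and was higher at 72 h with the RLE scaling (0.65, adjusted p = 0.026) and with DESeq2 (0.65, adjusted p = 0.018).

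In OPCs all 10 genes were lower than in ESCs, where 44.0% of genes fell, and none overlapped with the ESC range, as was so for 19.0% of all genes. The differences were smallest in Gpi1 (-1.01), Aldoa (-1.73), Tpi1 (-1.83) and Ldha (-1.87) and largest in Pgk1 (-4.60), Eno1 (-4.53) and Pdk1 (-4.22). Gapdh (-4.38), Pgam1 (-5.63) and Pkm (-3.54), of the lower pathway, fell too, and Aldoc rose by 3.74. Against RA-treated cells at 72 h, 7 members were lower in OPCs (20.4% of genes) and Gpi1 was higher by 0.68 (adjusted p = 0.0046; 21.3% of genes). With the replicate block 5 were lower, Tpi1 (adjusted p = 0.055) and Eno1 (adjusted p = 0.1) being lost. Of the 7, Eno1 did not pass without the WT OPC library at 24 h (adjusted p = 0.1) or 72 h (0.094) or the WT (0.14) or K27L (0.076) RA library, nor Tpi1 without the K27M OPC library at 72 h (0.054) or the K27L RA library (0.17), while Aldoa, at 0.55, passed without the shallow K27L ESC library (0.60, adjusted p = 0.017). In these stage comparisons the median of all genes lay at -0.17 for RA at 72 h against ESCs, at -0.31 for RA at 72 h against 24 h and at -0.16 for OPCs against ESCs.

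Genes that every cell uses moved with the same libraries. Eef1a1, a translation factor, stood at 3860 to 8919 CPM in ESCs, 3831 to 4199 and 102 to 123 CPM in RA-treated cells at 24 and 72 h of Dox, and 34.5 to 84.1 CPM in OPCs. The mitochondrial mt-Co1 stood at 3648 to 14160, 1777 to 3927, 174 to 229 and 251 to 439 CPM in the same order. Stage and kind of library therefore cannot be told apart in the RA libraries at 72 h and in the OPC libraries. The ESC and early RA libraries are closest in Eef1a1, and with only these in the model the comparison of RA-treated cells at 24 h with ESCs again passed 7 members.

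Whether the K27M difference changed with stage was tested directly. For RA-treated cells minus ESCs the median over the 10 genes was -0.49 against 0.08 for all genes, with Pfkl at -0.91 and Pgk1 at -0.85, but 0 members passed edgeR or DESeq2 (2 with an unadjusted p under 0.05, against 3.84% of genes), and 0% of genes passed edgeR. For OPCs minus ESCs 0 members passed edgeR or DESeq2 (1 with an unadjusted p under 0.05, against 29.6% of genes), although 17.7% of all genes passed edgeR. Of the other pathway genes, Pfkp (-4.74), Eno2 (-4.04), Slc2a3 (-2.85) and Hk1 (-1.69) were among 6 whose K27M difference was lower in OPCs than in ESCs.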

How the data were processed

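RNA-seq was analysed in 42 libraries (32 ESC, 6 RA, 4 OPC); ChIP-seq was not analysed here. The authors made libraries with QuantSeq 3′ or KAPA mRNA kits, sequenced single ends and aligned them to mm9 with STAR 2.7.1, and the deposited tables hold raw counts of 55471 genes per library. Positions came from the NCBIM37 annotation. Genes placed on chromosome 8 were left out of the tests and not named, since the clones may carry an extra copy of it. The shares of genes tested therefore exclude them, and an alternative fit kept them. Marker sums and promoter counts still include genes of chromosome 8.

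Counts were tested with edgeR 4.0.16 (TMM scaling, its default filter on low counts, quasi-likelihood F test, Benjamini-Hochberg over all genes tested), with DESeq2 1.42.0, RLE scaling, no filter, a replicate block, a term for transcript length and left-out libraries as alternatives. ESC models had a mean for each arm and Dox time, RA models line and Dox time, and OPC models line. In OPCs the sample titles give a different replicate number at each Dox time, while the count columns give every library the same number. The replicate block there is therefore a term for Dox time. Passed means an adjusted p under 0.05. Log2 levels used a pseudocount of 0.5. Depth, from 68378 to 22269533 counts per library, limits the precision. The edgeR models without pairs or other added terms were checked on simulated data for some comparisons only. These were K27M against WT in ESCs and in OPCs, K27L against WT in RA-treated cells, and RA-treated cells at 24 h against ESCs. The fits with a term for each pair, DESeq2 and the other alternatives were not checked in this way.

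Named were the 10 members, fixed isoform partners, Gapdh, Pgam1 and Pkm and lactate carriers, up to 5 other pathway genes and up to 4 HIF targets with the lowest adjusted p among those that passed. The members and lists were chosen with earlier results of these data known. Versions were R 4.3.3, Python 3.11.15, pandas 2.3.3, NumPy 2.4.6 and SciPy 1.17.1.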

Additional observations from a re-analysis of the deposited data

Results flagged for a closer look

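Among 40 searches of a gene within a group of 8 ESC libraries, 6 had a library far from the rest by Dixon's test, which by chance picks about 1 group in 20. In 5 of them the library was the second K27L replicate at 72 h, which held 68378 counts: Slc2a1 stood at 78.5 CPM there against 182 CPM in the nearest library, Aldoa at 720 against 1096 CPM, Tpi1 at 196 against 339 CPM, Eno1 at 157 against 454 CPM and Ldha at 550 against 1081 CPM. The sixth was Eno1 in the second K27M replicate at 72 h, at 397 CPM against 638 CPM in the nearest K27M library.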

How the results depend on the processing

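For K27M against WT ESCs, 0 members passed as planned, 1 without a filter on low counts, 3 with the length term, and 0 to 2 with 1 library left out. Libraries of these lines with the same number and Dox time deviated together. A replicate block common to all times passed 0 members; a block within each Dox time, chosen after seeing the data, passed 9, as it did with DESeq2 and with the length term, and 6 to 8 with 1 pair left out. At 24 and 72 h it passed 4. For K27M against GSK343 the common replicate block passed 2, DESeq2 1, no filter 3 and leaving out 1 library 0 to 5. The block within each Dox time passed none there. K27M against K27L ESCs gave 4 with the length term, 1 with only the compared libraries and 2 to 3 with 1 left out; K27L against WT gave 0 to 1. In RA-treated cells leaving out 1 library gave 0 to 1 (K27M against WT), 3 to 5 (K27L against WT) and 0 to 5 (K27M against K27L), and pooling Dox times gave 0 in the last pair. In OPCs it gave 1 to 2, and 2 with the replicate block. Between OPCs and RA-treated cells at 72 h the block left 6 of 8 members, Tpi1 (adjusted p = 0.055) and Eno1 (adjusted p = 0.1) being lost; it changed no other count of members. No gene's direction turned in any setting among those that passed. Of the values of single genes, 3376 kept their side of the threshold, 131 came to pass and 31 no longer did; the causes were not tested. The RA and OPC results rest on 1 library per line and Dox time, which kit made each library is not given in the sources used here, and reads of Eno1 may have been counted at its near copies.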

Other observations

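The genes whose levels followed the mean scaled level of the 10 members most closely over the 31 deeper ESC libraries were, of 8417 ranked, Pkm (r = 0.94, rho = 0.92), Ppme1 (0.84), Pgm2 (0.82), Tm7sf3, Smtnl2 and Npepps (0.79 each), Gnai2, H2afy and Kif22 (0.78 each) and Pvr (0.77). Pkm encodes the pyruvate kinase that closes glycolysis, and Pgm2 a sugar phosphomutase that links glucose phosphates. By rank correlation 7 of these 10 were also among the first 10. Of 27 other pathway genes ranked, 5 had r above 0.5, and so had 4.43% of all genes. The members' mean scaled level was highest in the second K27M replicate at 8 h (1.60) and lowest in the first GSK343 replicate at 72 h (-1.30). These correlations carry no test, since libraries share lines, Dox times and rounds.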
